A study of Homo sapiens with 15 samples.

Results

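TCIPP and TCEP were compared at 25 µM, the concentration at which HepG2 cells received both compounds. The comparison used the 3 TCIPP libraries and the 3 TCEP libraries at 25 µM, 6 of the 15 libraries in the series, paired by replicate number. TCIPP is tris(2-chloroisopropyl) phosphate and TCEP is tris(2-chloroethyl) phosphate. Both are chlorinated organophosphate flame retardants, and they differ by the extra methyl groups on the chlorinated side chains of TCIPP. HepG2 is a human hepatocellular carcinoma line, kept below 25 passages per the labels. Exposure lasted 72 h in every group. The other 9 libraries were TCEP at 250 µM, TCIPP at 2.5 µM and the solvent control with 0.1% DMSO, 3 of each. Each replicate was seeded, treated and extracted on its own, per the series' design text, so the replicates are separate cultures of 1 line. Cytotoxicity and uptake were not measured in these files, and 25 µM was the lower level of TCEP but the higher level of TCIPP.

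Hepatocytes bring in amino acids and organic osmolytes through sodium-coupled carriers, make bile acids under the control of the nuclear receptor FXR, and secrete most plasma proteins. When amino acids run short or the endoplasmic reticulum is loaded, phosphorylation of eIF2α favours translation of the transcription factor ATF4, which raises genes for amino acid synthesis, uptake and tRNA charging. Reactive compounds release NRF2 from KEAP1 and raise detoxifying reductases, while low oxygen stabilises HIF factors and raises glucose uptake and glycolysis. The gene lists described here follow those programmes, along with the lipid, secretory and cell cycle functions of liver cells.

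Total exon reads were 8.91, 5.35 and 8.89 M (megareads) in TCIPP replicates 1, 2 and 3, and 10.5, 9.05 and 14.7 M in TCEP replicates 1, 2 and 3. Intron reads took 8.60%, 8.84% and 9.56% of gene reads with TCIPP, against 8.05%, 8.06% and 8.59% with TCEP, so the share was higher with TCIPP in each of the 3 pairs. All 10 markers of HepG2, among them the secreted proteins ALB and APOB and the factor HNF4A, were detected, and their summed level was 47736 to 54347 CPM with TCIPP, against 48633 to 49667 CPM with TCEP. Of markers of other cells, KRT7, DCN, THY1, KDR, PTPRC and CD163 had no reads in all 6 libraries at 25 µM. Others were expressed: the lysozyme gene LYZ of the leukocyte list averaged 4524 CPM with TCIPP and 4443 CPM with TCEP. The bile duct markers KRT19 and SOX9 averaged 145 and 237 CPM with TCIPP, against 191 and 203 CPM with TCEP, and CD68 and PDGFRB averaged 28.2 and 24.3 CPM with TCIPP, against 37.3 and 14.2 CPM with TCEP. Levels are counts per megaread (CPM) with TMM scaling, and fold changes are log2 values of TCIPP over TCEP from edgeR's quasi-likelihood test with the replicate number as a block. Higher, lower, rose and fell describe TCIPP relative to TCEP at 25 µM unless another contrast is named, and not a change from DMSO. A gene was called at a Benjamini-Hochberg adjusted p under 0.05 over all genes tested.

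Of 12223 genes tested, 1169 (9.56%) were called: 562 (4.6%) were higher and 607 (4.97%) lower with TCIPP than with TCEP. Most differences were small. The median size among called genes was 0.34, a fold of 1.27, while 247 genes differed by more than 0.5 and 38 by more than 1, of which 18 were higher and 20 lower. In 1166 of the 1169 called genes all 3 pairs pointed the same way, against 47.8% of all genes tested. The 3 TCIPP and 3 TCEP libraries did not overlap in 791 called genes (67.7%), against 2503 (20.5%) of all genes. The calls rest on the pairing: with the group alone in the fit and no block, 0 genes were called, with 1894 at an unadjusted p under 0.05 and a smallest adjusted p of 0.108. They also depend on the replicates, since leaving out pair 1 gave 751 calls and leaving out pair 2 gave 223.

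**Figure D1:**
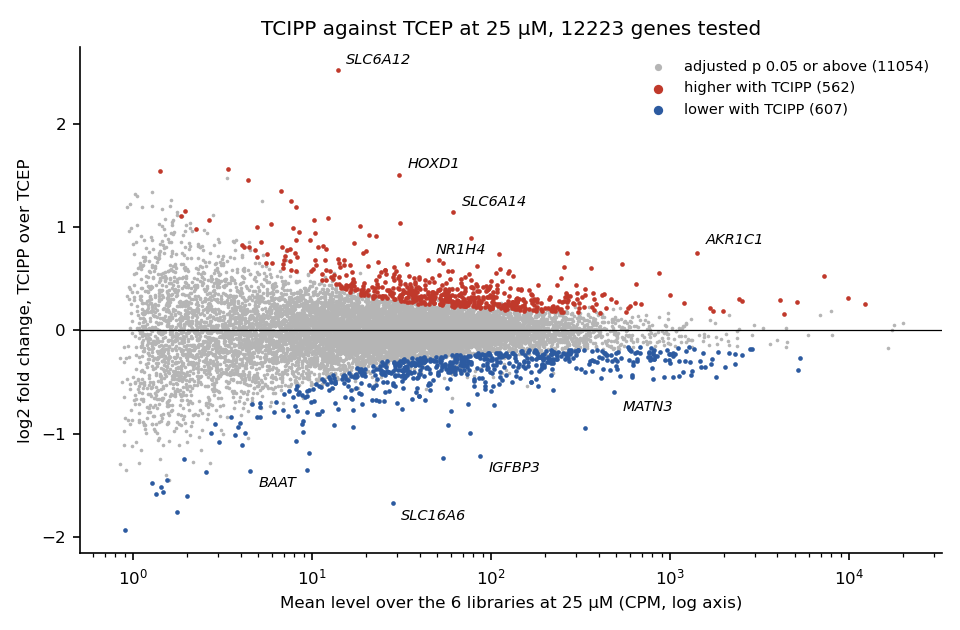
Difference between TCIPP and TCEP at 25 µM (vertical axis, log2 fold change) against the mean level over the 6 libraries (horizontal axis, CPM on a log axis) for 12223 genes. Red points are the 562 genes called higher with TCIPP and blue points the 607 called lower, and few called genes lie beyond 1 in either direction.

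The highest fold among genes named by rule was that of SLC6A12, the betaine and GABA carrier of liver and kidney (chr12:299243-323736, hg19). It stood at 53.2, 7.52 and 12.1 CPM in TCIPP replicates 1, 2 and 3, and at 6.28, 0.787 and 4.14 CPM in the TCEP replicates. Every TCIPP library was above every TCEP library, although replicates of the same group also differed several-fold among themselves. The log2 fold change was 2.52 ± 0.248 (SE), adjusted p = 0.000365. The related carrier SLC6A14, which moves neutral and cationic amino acids (chrX:115567790-115592625), had 108, 48.3 and 99.2 CPM with TCIPP, against 45.4, 25.1 and 44.4 CPM with TCEP. Here too the groups did not overlap, and the log2 fold change was 1.14 ± 0.0762 (SE), adjusted p = 1.48e-05. For both carriers the DMSO libraries lay near those of TCIPP, with means of 22.8 ± 12.9 and 89.7 ± 37 CPM (SD, n = 3).

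HOXD1, a homeobox transcription factor (chr2:177053307-177055688), was another leading gene. It had 64.4, 27.1 and 45.9 CPM with TCIPP and 18.3, 10.9 and 18.4 CPM with TCEP, with no overlap (1.51 ± 0.108 (SE), adjusted p = 1.92e-05). FCGBP, a mucus protein that binds the Fc part of IgG, had 24.5, 10.3 and 15.5 CPM with TCIPP and 9.42, 5.73 and 8.14 CPM with TCEP (log2 fold change 1.09 ± 0.143 (SE), adjusted p = 0.00113). PRIMA1, the membrane anchor of acetylcholinesterase, had 15.5, 9.03 and 8.31 CPM with TCIPP and 5.9, 2.59 and 4.81 CPM with TCEP (1.25 ± 0.194 (SE), adjusted p = 0.0027). All 3 genes were higher with TCIPP in each pair. Among the other genes of largest rise, ISY1-RAB43, SLC23A3, OVCA2, RP4-798P15.3, ANKHD1-EIF4EBP3 and a gene with a clone name drew at most 14.5% of their exon reads from 1 place in the genome, so their reads may belong to overlapping or near-identical genes. The zinc-finger gene ZNF320 completed the 12, at 5.43, 2.63 and 2.88 CPM with TCIPP and 2.00, 0.899 and 2.1 CPM with TCEP (1.06 ± 0.299 (SE), adjusted p = 0.044).

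Among lower genes, IGFBP3, which binds insulin-like growth factors in blood (chr7:45951949-45961473), had 36.9, 86.9 and 38 CPM with TCIPP and 84, 174 and 104 CPM with TCEP. TCIPP replicate 2 was above TCEP replicate 1, so the groups overlapped, but within every pair TCIPP was the lower. The log2 fold change was -1.21 ± 0.0829 (SE), adjusted p = 1.48e-05. Other called members of the growth factor system went both ways. Of the 14 tested members 28.6% were called, beside 9.56% of all genes. IGFBP2, a further binding protein, had 28.4, 34.2 and 31.5 CPM with TCIPP and 47, 49.9 and 48.6 CPM with TCEP (-0.64 ± 0.0768 (SE), adjusted p = 0.000725). IGF2, the fetal growth factor itself, was also called lower (-0.38 ± 0.0545), IGF2BP1, an RNA-binding protein of the IGF2 message, was called higher (0.17), and the other 10 of 14 tested members were not called. IGFBP1 had 2186, 2535 and 2636 CPM with TCIPP and 2239.7, 2525 and 2489.9 CPM with TCEP, and the 95% interval of its log2 fold change was -0.09 to 0.12.

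The 12 called genes of largest fall without overlap mostly had low levels. BAAT, which joins bile acids to glycine or taurine (chr9:104122699-104145801), had 2.37, 2.82 and 2.33 CPM with TCIPP and 5.05, 8.54 and 6.17 CPM with TCEP (-1.36 ± 0.217 (SE), adjusted p = 0.00329). COL1A1, a chain of type I collagen, had 0.678, 0.752 and 0.776 CPM with TCIPP and 1.81, 2.59 and 2.31 CPM with TCEP (-1.56 ± 0.363 (SE), adjusted p = 0.0203). The tetraspanin TSPAN15 had 1.02, 0.752 and 0.665 CPM with TCIPP and 2.86, 2.36 and 2.98 CPM with TCEP (-1.76 ± 0.345 (SE), adjusted p = 0.00857). A count of 3 reads corresponded to between 0.204 and 0.560 CPM in these libraries, so the TCIPP values of COL1A1 and TSPAN15 rest on few reads. CETP, which moves lipids between lipoproteins (-1.51), the protease CTSS (-1.58), the mTOR-binding protein DEPTOR (-1.45), C19orf33 (-1.47) and AC093391.2 (-1.24) had mean levels of 1.13 CPM or less with TCIPP. The rest were RPL36A, RP11-517H2.6, MSH5-SAPCD1 and FLRT3, with at most 16.4% of exon reads unique to 1 place.

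**Figure D2:**
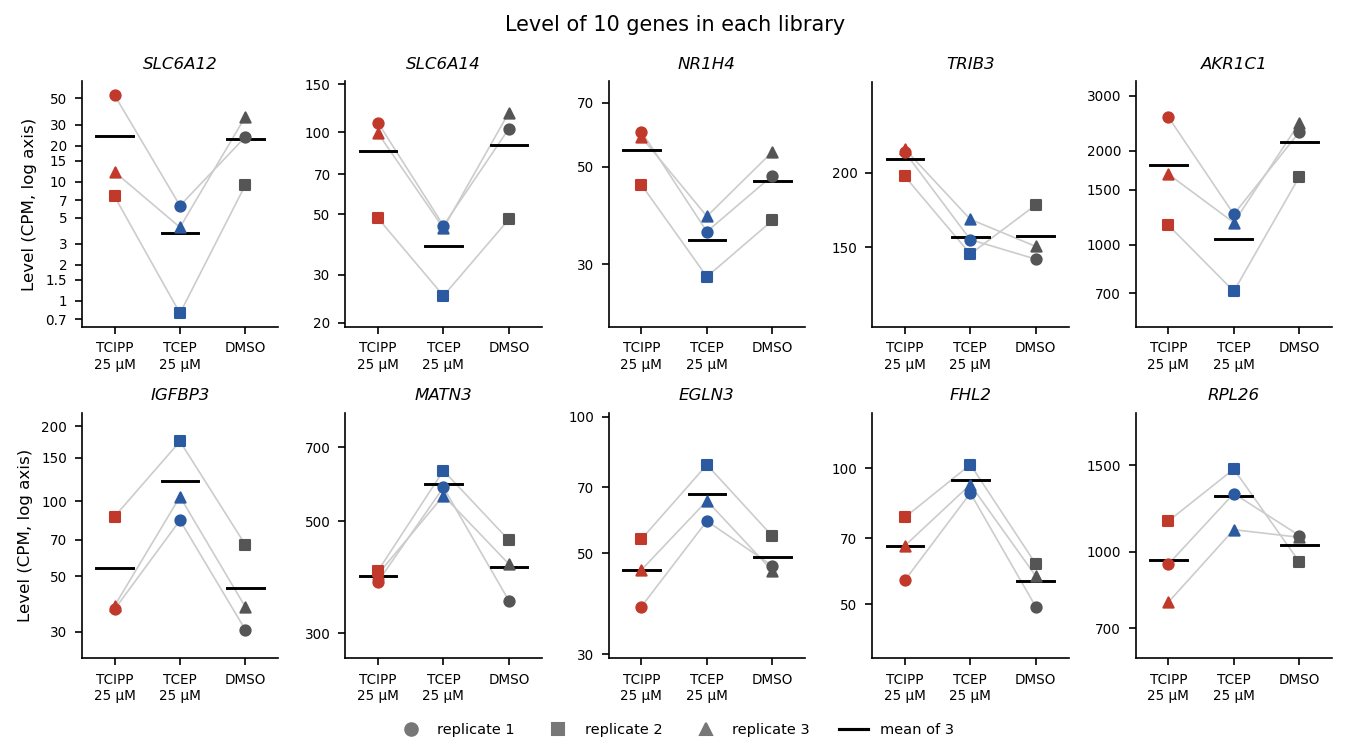
Level of 10 genes (CPM, log axis) in each library with TCIPP at 25 µM, TCEP at 25 µM and DMSO, with grey lines joining libraries of the same replicate number and black bars for the mean of 3. The DMSO libraries were not part of the paired fit. In the upper row every TCIPP library lies above the TCEP library of its number, in the lower row below it, and the DMSO libraries mostly lie nearer to those of TCIPP.

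Called genes of the ATF4 response were all higher with TCIPP. Of 33 tested members 20 were called higher and 0 lower, with a median log2 fold change of 0.22, beside -0.01 over all genes and 4.6% of all genes called higher. CEBPB, a partner factor, had 86.1, 79.2 and 102 CPM with TCIPP and 56, 55 and 72.5 CPM with TCEP (0.55 ± 0.0653 (SE), adjusted p = 0.000706). TRIB3, a pseudokinase that feeds back on ATF4, had 217, 197 and 219 CPM with TCIPP and 154, 146 and 167 CPM with TCEP (0.44 ± 0.0529 (SE), adjusted p = 0.000725). The glycine carrier SLC6A9 had 29.2, 17.9 and 19.8 CPM with TCIPP and 13.7, 10.7 and 12.4 CPM with TCEP (0.85 ± 0.118 (SE), adjusted p = 0.00147). None of these 3 genes overlapped between the groups. ASNS, asparagine synthetase, had 136, 129.7 and 129 CPM with TCIPP and 112, 108 and 121 CPM with TCEP, a small rise without overlap (0.21 ± 0.0608 (SE), adjusted p = 0.0478).

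The cystine carrier SLC7A11 also rose (0.56 ± 0.0793), with 20.7% of its exon reads unique to 1 place, as did DDIT4, an inhibitor of mTORC1 (0.21 ± 0.0518, 23.1% unique). The summed level of the tested members was 8223, 7427 and 8314 CPM with TCIPP and 6875, 6632 and 7412 CPM with TCEP, higher with TCIPP in each pair, and 6834, 7334 and 7249 CPM with DMSO. Without pair 2 the called members numbered 5, and without pair 1 they numbered 12, all higher. The cytosolic tRNA synthetases load amino acids onto tRNAs and are in part ATF4 targets. Of their 22 members 5 were called higher and 1 lower (median 0.08), 27.3% called beside 9.56% of all genes. YARS, for tyrosine, had 170.1, 167 and 152 CPM with TCIPP and 126, 115 and 127 CPM with TCEP (0.40 ± 0.0626 (SE), adjusted p = 0.0027). MARS, for methionine (0.30 ± 0.0536), GARS, for glycine (0.25 ± 0.0501), and CARS, for cysteine (0.34 ± 0.0707), were likewise higher in every pair. Without pair 2, 0 synthetases were called.

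ATF4 binds composite sites of C/EBP and ATF half-sites, so the promoters of the list were searched for TGATGNAA on both strands within 250 bases before the start (RefSeq, GRCh38.p14). Of the 33 tested members 25 had a promoter in the table and 4 held a match, and of the 20 called members 16 had a promoter and 2 held a match. Over all tested genes with a promoter, 207 of 8848 (2.34%) held one. The stretches below belong to the called members with a match, on the minus strand of chr19:46784858-46784957 and chr7:97872423-97872522, with the match in capitals. SLC1A5, a glutamine carrier, rose by 0.23 (adjusted p = 0.0217, edgeR). SLC1A5 and ASNS each lost their call in 7 of 15 alternative fits, among them DESeq2 with the block and leaving out pair 1 or pair 2.
SLC1A5: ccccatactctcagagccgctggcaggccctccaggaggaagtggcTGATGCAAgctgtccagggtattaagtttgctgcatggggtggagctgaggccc
ASNS: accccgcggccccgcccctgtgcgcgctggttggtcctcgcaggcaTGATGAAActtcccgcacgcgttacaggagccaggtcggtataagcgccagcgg

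Called NRF2 targets were also higher, with HMOX1 as the exception. Of 35 tested members 16 were called higher and 1 lower, with a median of 0.21, 48.6% called beside 9.56% of all genes. Without pair 2, 7 were called higher and 0 lower. AKR1C1, an aldo-keto reductase of steroids and aldehydes, had the smallest p of the list. It had 2565, 1156 and 1684 CPM with TCIPP and 1253, 710.04 and 1178 CPM with TCEP. The groups overlapped by TCIPP replicate 2, which was below TCEP replicates 1 and 3, while TCIPP was higher in each pair (0.75 ± 0.0771 (SE), adjusted p = 0.000456). AKR1C2, a close relative, had 864, 499 and 614 CPM with TCIPP and 481, 314 and 459 CPM with TCEP (0.64 ± 0.0691 (SE), adjusted p = 0.000493). AKR1B10, which reduces retinal and lipid aldehydes, had 552, 357 and 406 CPM with TCIPP and 314, 245 and 299 CPM with TCEP (0.60 ± 0.0664 (SE), adjusted p = 0.000493). AKR1C1 and AKR1C2 share sequence, with 72.2% and 61.9% of exon reads unique, so reads may be divided between them.

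DMSO means of the 3 reductases were 2134, 769 and 464 CPM, above the means of both compounds at 25 µM. GPX2, a glutathione peroxidase, rose by 0.75 with 11.7% of reads unique. NQO1, a quinone reductase, had 848, 751 and 721 CPM with TCIPP and 721, 684 and 684 CPM with TCEP, a difference of 0.15 ± 0.0502 that was not called (adjusted p = 0.0804). HMOX1, which breaks down heme, was the 1 member called lower, among 6 with a negative fold change. It had 29.8, 30.7 and 31.8 CPM with TCIPP and 42.6, 46.5 and 39 CPM with TCEP, with no overlap (-0.46 ± 0.0841 (SE), adjusted p = 0.00621). NRF2 binds antioxidant response elements, whose core TGACNNNGC was found on either strand in 16.2% of 8848 promoters of tested genes. It was found in 7 of 26 list members with a promoter and in 3 of 12 called higher. Those of EPHX1, an epoxide hydrolase (0.46; plus strand of chr1:225825230-225825329), and GCLM, a subunit of the enzyme that starts glutathione synthesis (0.33; minus strand of chr1:93909431-93909530), are shown with the match in capitals. They were taken in order of p from the called members that hold a match and have at least 50% unique reads, with 1 chromosome left out.
EPHX1: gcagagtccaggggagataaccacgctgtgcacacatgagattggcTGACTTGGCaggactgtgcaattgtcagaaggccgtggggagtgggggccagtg
GCLM: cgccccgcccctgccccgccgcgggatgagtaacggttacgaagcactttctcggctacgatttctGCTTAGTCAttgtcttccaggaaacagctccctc

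Called hypoxia and glycolysis genes were mostly lower. Of 41 tested hypoxia genes 13 were called lower with TCIPP and 1 higher, with a median of -0.19, beside 4.97% of all genes called lower. The 1 higher gene was DDIT4, which is also in the ATF4 list. IGFBP3 was among the lower genes and is also counted in the growth factor system. ERO1L, which oxidises proteins in the endoplasmic reticulum, had 276, 403 and 363 CPM with TCIPP and 389, 565 and 475 CPM with TCEP (-0.46 ± 0.05 (SE), adjusted p = 0.000493). SLC2A3, a high-affinity glucose carrier, had 671, 1088 and 887 CPM with TCIPP and 979, 1349 and 1258 CPM with TCEP (-0.45 ± 0.0547 (SE), adjusted p = 0.000725). Both overlapped between the groups, with TCIPP replicate 2 above TCEP replicate 1, and were lower with TCIPP in every pair. EGLN3, a prolyl hydroxylase that marks HIF for decay, did not overlap, with 38.2, 53.8 and 46 CPM with TCIPP and 58.9, 78.4 and 65.3 CPM with TCEP (-0.56 ± 0.0699 (SE), adjusted p = 0.000923). CA9, a carbonic anhydrase at the cell surface, had 54.9, 57.7 and 63.6 CPM with TCIPP and 67.7, 85.4 and 72.1 CPM with TCEP (-0.34 ± 0.0794 (SE), adjusted p = 0.0212). LOX, which crosslinks collagen, fell by 0.24 with overlap.

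In glycolysis 8 of 22 tested genes were called lower and 0 higher (median -0.17), 36.4% called beside 9.56% of all genes. PGK1, phosphoglycerate kinase, had 1046, 1179.6 and 1066 CPM with TCIPP and 1291, 1510.1 and 1238 CPM with TCEP (-0.29 ± 0.0489 (SE), adjusted p = 0.00404). HK2, the hexokinase of growing cells (-0.30 ± 0.0543), and SLC2A2, the main glucose carrier of hepatocytes (-0.46 ± 0.091), were lower in each pair. Of 13 genes of glucose output and glycogen, 2 were lower and 1 higher, 23.1% called. G6PC, the last enzyme of glucose release, had 28.1, 28.2 and 21.4 CPM with TCIPP and 34.3, 46.4 and 34.4 CPM with TCEP (-0.56 ± 0.0976 (SE), adjusted p = 0.00502), and UGP2, which makes UDP-glucose, fell as well (-0.36 ± 0.06). PPARGC1A, a coactivator of that programme, was higher (0.24). DMSO means were 313 CPM for ERO1L, 758 for SLC2A3, 49.1 for EGLN3 and 1070.3 for PGK1, closer to TCIPP than to TCEP for each of the 4. Without pair 2, 6 hypoxia genes and 2 glycolysis genes were called, all lower.

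**Figure D3:**
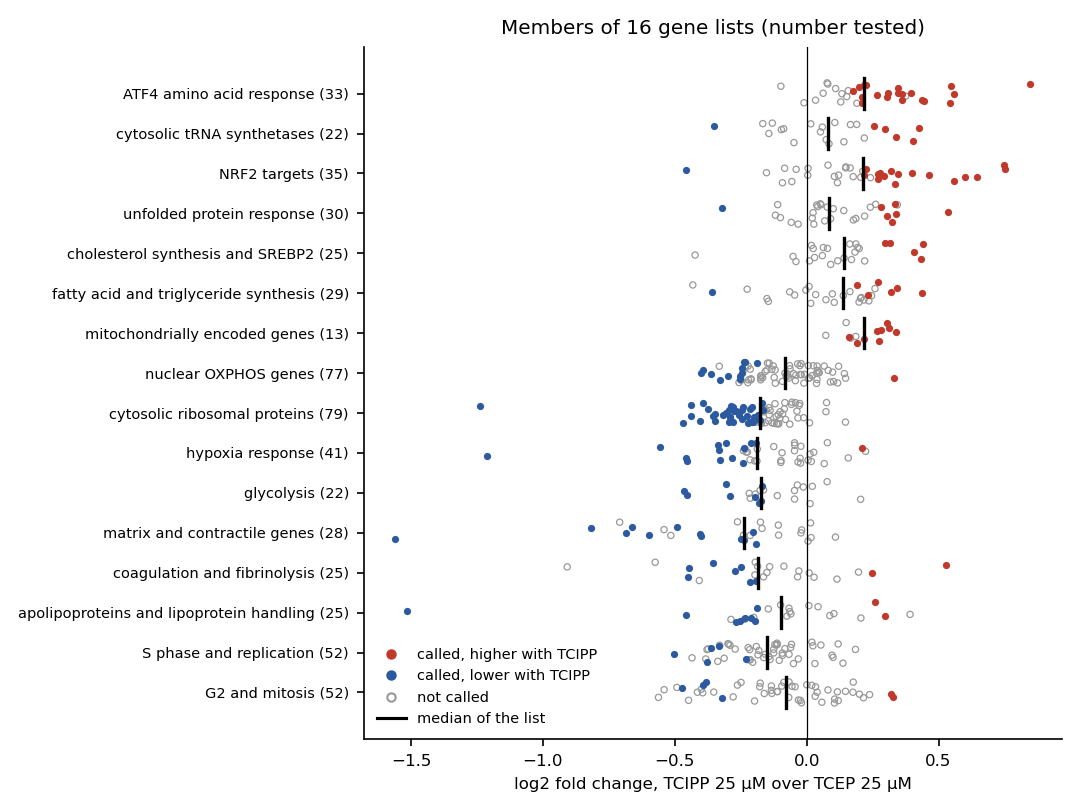
Log2 fold change of TCIPP over TCEP at 25 µM for each tested member of 16 gene lists, with the number tested in brackets. Filled points were called (red higher, blue lower with TCIPP), open points were not, and bars mark list medians, which run from 0.22 for the ATF4 and mitochondrially encoded lists to -0.24 for matrix and contractile genes.

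Of 14 tested genes of bile acid handling 5 were called higher and 2 lower with TCIPP (median 0.11). That is 50% called, beside 9.56% of all genes. NR1H4, which encodes the bile acid receptor FXR (chr12:100867486-100958191), had 60.1, 45.5 and 58.4 CPM with TCIPP and 35.6, 28.1 and 38.6 CPM with TCEP, with no overlap (0.68 ± 0.0738 (SE), adjusted p = 0.000493). NR0B2, the FXR target SHP that represses bile acid synthesis, had 21.8, 16.7 and 21.5 CPM with TCIPP and 14.9, 12.4 and 15.2 CPM with TCEP (0.50 ± 0.105 (SE), adjusted p = 0.0122). KLB, the coreceptor through which intestinal FGF19 acts on liver, had 192, 111 and 151 CPM with TCIPP and 103, 88.8 and 109.8 CPM with TCEP (0.57 ± 0.0898 (SE), adjusted p = 0.0028). The subunits of the bile acid exporter OST differed in direction. SLC51B had 14.8, 11.7 and 15 CPM with TCIPP and 8.95, 5.85 and 8.75 CPM with TCEP (0.81 ± 0.135 (SE), adjusted p = 0.00399), whereas SLC51A had 5.09, 10.5 and 4.55 CPM with TCIPP and 6.47, 17 and 7.53 CPM with TCEP (-0.60 ± 0.16 (SE), adjusted p = 0.0366). CYP7A1, the rate-limiting enzyme of bile acid synthesis, and CYP3A4 were below the count filter and not tested. Without pair 2, 3 bile acid genes were called, all higher.

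Called genes of lipid synthesis were mostly higher, and those of fatty acid oxidation lower. In cholesterol synthesis and uptake 5 of 25 tested genes were called higher and 0 lower (median 0.14). That is 20% called, beside 9.56% of all genes. MVK, mevalonate kinase, had 25.5, 23.5 and 28 CPM with TCIPP and 20.3, 17.3 and 20.5 CPM with TCEP (0.41 ± 0.0906 (SE), adjusted p = 0.0168), and STARD4, a carrier of cholesterol within the cell, had 66.1, 56.4 and 72.6 CPM with TCIPP and 53.4, 48.8 and 54.9 CPM with TCEP (0.31 ± 0.0708 (SE), adjusted p = 0.0176). HMGCS1, an early enzyme of the pathway, was not called, with an interval of -0.16 to 0.08. In fatty acid and triglyceride synthesis 6 of 29 were higher and 1 lower (median 0.14), 24.1% called. GPAM, which starts triglyceride synthesis, had 131, 108 and 133 CPM with TCIPP and 99.2, 77.8 and 97.5 CPM with TCEP (0.44 ± 0.0583 (SE), adjusted p = 0.00121). FASN, fatty acid synthase, rose by 0.34 ± 0.0512, and ACSL5, a fatty acid activating enzyme, was the lower one (-0.36 ± 0.064).

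In fatty acid oxidation and PPARα targets 6 of 29 genes were lower and 0 higher (median -0.04), 20.7% called beside 9.56% of all genes. They included FABP1, the fatty acid carrier of hepatocytes (-0.38 ± 0.0594), VNN1, a pantetheinase (-0.90 ± 0.16), and CPT1A, the gate of mitochondrial fatty acid entry, which had 56.4, 75.8 and 57.4 CPM with TCIPP and 68.7, 92.2 and 73.6 CPM with TCEP (-0.31 ± 0.0652 (SE), adjusted p = 0.0126). Of 25 apolipoprotein and lipoprotein genes 8 were lower and 2 higher (median -0.10), 40% called. MTTP, which loads lipid onto apolipoprotein B, had 116, 125 and 127 CPM with TCIPP and 159, 187 and 163 CPM with TCEP, with no overlap (-0.46 ± 0.0596 (SE), adjusted p = 0.00113). APOM fell (-0.25 ± 0.0518), and APOB, the main protein of secreted lipoproteins, was among the higher members (0.26 ± 0.0692). Without pair 2, 1 cholesterol gene, 2 fatty acid synthesis genes, 1 fatty acid oxidation gene and 1 lipoprotein gene were called, and DESeq2 with the block called 1 fatty acid oxidation gene.

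All 13 protein-coding genes of the mitochondrial genome had positive fold changes, and 9 were called higher with TCIPP (median 0.22). MT-ND4, a subunit of complex I, had 10201, 10997 and 11552 CPM with TCIPP and 8309, 8419.8 and 9643 CPM with TCEP (0.31 ± 0.0485 (SE), adjusted p = 0.0027), with no overlap. MT-ND6, the subunit read from the other strand, rose by 0.34 ± 0.0465. The summed level of the 13 was 67453, 72806 and 70691 CPM with TCIPP, against 60334, 60104 and 65332 CPM with TCEP, all TCIPP libraries being above all TCEP libraries, and 71240.5, 76237 and 62833 CPM with DMSO. Nuclear genes of oxidative phosphorylation did not follow: 12 of 77 were called lower and 1 higher (median -0.08), 16.9% called beside 9.56% of all genes. ATP5E, a small subunit of ATP synthase, had 262, 299.7 and 224 CPM with TCIPP and 336, 373 and 298 CPM with TCEP (-0.36 ± 0.0502 (SE), adjusted p = 0.0014), and UQCRB of complex III fell too (-0.39 ± 0.0585). Without pair 2 the calls were 2 mitochondrial genes, both higher, and 1 nuclear gene, lower. By DESeq2 with the block 8 mitochondrial genes were higher, while 3 nuclear genes were lower and 1 higher. With library totals 8 nuclear genes were lower and 1 higher.

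Cytosolic ribosomal protein genes, the longest list, had the largest number of calls of any list. The share called was 50.6%, all lower, beside 4.97% of all genes called lower. Larger shares were called among mitochondrially encoded genes (69.2%), bile duct and progenitor markers (66.7%), ATF4 genes (60.6%) and fibroblast markers (60%). Of 79 tested members 40 were called lower with TCIPP and 0 higher, and 75 had a negative fold change (median -0.18). RPL26 had 944, 1154 and 789.9 CPM with TCIPP and 1313, 1472 and 1109 CPM with TCEP (-0.44 ± 0.0495 (SE), adjusted p = 0.000548). The groups overlapped by TCIPP replicate 2, while each pair was lower with TCIPP. The summed level was 65925, 67526 and 57539 CPM with TCIPP, against 74719, 76879 and 67883 CPM with TCEP, with DMSO at 62788, 64377 and 65893 CPM. Many of these genes have processed pseudogenes, and RPL36A, RPL9 and RPL41 had only 5.62%, 4.64% and 6.58% of exon reads unique. When only unique exon reads were counted, 37 members were called lower and 0 higher (median -0.16). Without pair 2, 16 were called, all lower.

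Fold changes also followed the GC content of transcripts. The median log2 fold change was -0.11 in the fifth of genes with the lowest GC content and 0.09 in the fifth with the highest, and Spearman's rho across 12053 genes, which are not independent replicates, was 0.32. Intron shares moved with the groups as well, and whether these trends arose in the cells or in the libraries cannot be told apart. After a correction for GC content and exon length, chosen after the trend was seen, 1219 genes were called, 853 of them among the 1169. ATF4 genes then had 18 higher and 1 lower, NRF2 targets 19 and 1, and hypoxia genes 1 and 13. Ribosomal protein genes had 0 and 39, and mitochondrially encoded genes 12 and 0. Fewer nuclear genes of oxidative phosphorylation were called than before, at 1 and 7 (median -0.05).

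Among secreted proteins of the liver, 7 of 25 coagulation genes were lower and 2 higher (median -0.19), 36% called. FGG, a chain of fibrinogen, had 676, 881 and 806 CPM with TCIPP and 1053, 1126 and 1028 CPM with TCEP, with no overlap (-0.45 ± 0.0603 (SE), adjusted p = 0.00126), and FGB, another chain, fell too (-0.35 ± 0.0636). TFPI, which inhibits the start of clotting, had 415, 600.2 and 556 CPM with TCIPP and 656, 813 and 662 CPM with TCEP (-0.45 ± 0.0672 (SE), adjusted p = 0.00231). A2M, a broad protease inhibitor, was 1 of the 2 higher members, at 11536, 6653 and 7818 CPM with TCIPP and 6829, 4907 and 5970.4 CPM with TCEP (0.53 ± 0.0655 (SE), adjusted p = 0.000815). In complement and acute phase genes 3 of 29 were lower and 0 higher, 10.3% called and so near the 9.56% of all genes, among them CFI, which inactivates C3b (-0.40 ± 0.049), and C5 (-0.28 ± 0.0565). Of 35 other hepatocyte genes 5 were lower and 0 higher, 14.3% called. They included ORM1 (-0.38 ± 0.0629) and AHSG (-0.26 ± 0.0488), both plasma glycoproteins. ALB had 21299.6, 15338 and 18483 CPM with TCIPP and 18548, 16116 and 17915 CPM with TCEP, with an interval of -0.06 to 0.18, and AFP, the fetal counterpart, had one of -0.14 to 0.07. In the urea cycle ASS1 rose (0.29 ± 0.0673) and CPS1 fell (-0.31 ± 0.0807), the only calls among 13, a share of 15.4%. B2M, the light chain of class I molecules, was the 1 call among 15 antigen presentation genes (-0.20 ± 0.0499), a share of 6.67% and so below that of all genes. Without pair 2, 2 coagulation genes were lower and 1 higher, 1 complement gene and 1 other hepatocyte gene were lower, and 0 urea cycle or antigen presentation genes were called.

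Matrix and contractile genes were lower with TCIPP in 12 of 28 tested members and higher in 0, 42.9% called beside 9.56% of all genes. Their median (-0.24) was the lowest of the lists with a call in at least 5 members. MATN3, a matrix protein of cartilage (chr2:20191872-20212455), had 379.7, 399 and 393 CPM with TCIPP and 583, 629 and 561 CPM with TCEP, tight groups without overlap (-0.60 ± 0.0506 (SE), adjusted p = 8.84e-05). EDN1, the vasoconstrictor endothelin, had 16.8, 20.3 and 21.3 CPM with TCIPP and 28, 32.4 and 33.5 CPM with TCEP (-0.68 ± 0.0872 (SE), adjusted p = 0.00103). VCAN, a large proteoglycan, had 12.8, 18.2 and 17.7 CPM with TCIPP and 27.7, 30.4 and 27.4 CPM with TCEP (-0.82 ± 0.109 (SE), adjusted p = 0.00122), with 34.2% of reads unique. FHL2, a LIM protein of focal adhesions, had 56.5, 77.8 and 67.4 CPM with TCIPP and 88.1, 102 and 92 CPM with TCEP (-0.49 ± 0.0696 (SE), adjusted p = 0.00166). MATN3, EDN1 and VCAN were among the 5 genes called when all 15 libraries were fitted without the block, the other two being AFF1 and CYB5A. DCN, LUM, COL1A2 and THY1, which define fibroblasts, had no reads in the 6 libraries, while COL1A1 and TAGLN were called lower and PDGFRB higher among the 5 fibroblast markers tested. The summed level of that list was 51.0 to 67.4 CPM with TCIPP, against 54.0 to 66.9 CPM with TCEP. Of 6 tested markers of bile duct and progenitor cells, KRT19, EPCAM and PROM1 were lower and SOX9 higher. CD68 was the 1 call among 3 leukocyte markers tested (-0.44), with 4.86% of reads unique, and 0 of 1 endothelial marker was called by edgeR. Among the 10 HepG2 markers APOB was higher and FGB lower. The part of other cell types in the matrix result was not tested, and in bulk RNA fewer cells of a type and less RNA per cell cannot be told apart. Without pair 2, 7 members were called, all lower.

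Of 30 genes of the unfolded protein response 6 were higher and 1 lower (median 0.08), 23.3% called beside 9.56% of all genes. XBP1, a factor of the response, had 338, 264 and 326 CPM with TCIPP and 245, 215 and 274 CPM with TCEP (0.34 ± 0.0557 (SE), adjusted p = 0.00374), and HERPUD1 (0.28 ± 0.0577) and SYVN1 (0.34 ± 0.0724), both of which act in the disposal of misfolded proteins, rose as well. The chaperone HSPA5 was not called, with an interval of -0.06 to 0.27. HSP90B1, the HSP90 of the endoplasmic reticulum, was the lower member (-0.32 ± 0.0505). In the cytosolic and mitochondrial chaperone list 4 of 27 were lower and 0 higher, 14.8% called. HSP90AA1 had 965, 1260.04 and 1140.3 CPM with TCIPP and 1532, 1491 and 1477 CPM with TCEP (-0.43 ± 0.0684 (SE), adjusted p = 0.00326), and the partners HSPD1 (-0.24 ± 0.0478) and HSPE1 (-0.33 ± 0.0757) fell with it. The proteasome list had 2 of 36 members higher and 2 lower, a share near the 9.56% of all genes, and all 36 intervals lay within 0.5 of 0. Higher calls in the unfolded protein response numbered 1 without pair 2, 2 without pair 1 (median 0.02) and 10 without pair 3. In the chaperone list 3 were lower without pair 2, and without pair 3 there were 4 higher and 4 lower. After the GC and length correction 1 chaperone was higher and 2 lower, and HSPD1 and HSPE1 were not called.

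Immediate early genes were mixed, with 6 of 27 called higher and 2 lower (median 0.13), 29.6% called beside 9.56% of all genes. FOS had 13.2, 13.9 and 16.9 CPM with TCIPP and 7.43, 7.19 and 10.3 CPM with TCEP (0.81 ± 0.131 (SE), adjusted p = 0.00343), and EGR1 had 19.6, 18.4 and 21.7 CPM with TCIPP and 14.3, 11.2 and 12.9 CPM with TCEP (0.64 ± 0.114 (SE), adjusted p = 0.00539). Both are transcription factors of growth signalling, and neither overlapped between groups. CYR61, a matricellular target of YAP, was lower, at 32.8, 82.4 and 57.6 CPM with TCIPP and 68.8, 119 and 85.9 CPM with TCEP (-0.71 ± 0.0937 (SE), adjusted p = 0.00121). DUSP1, a phosphatase of MAP kinases, was not called (0.12 ± 0.0607). In the circadian list 3 of 17 were higher and 0 lower, 17.6% called. They were PER1 (0.58 ± 0.145), PER2 (0.33 ± 0.0921) and NPAS2 (0.34 ± 0.068). Without pair 2 and by DESeq2 with the block 0 circadian genes were called, and without pair 1 there was 1. Immediate early genes had 2 higher and 2 lower without pair 2, and 1 of each by DESeq2.

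Lists of genes that handle foreign compounds had 4 or 5 calls each, and 9.56% of all genes were called. Called shares were 22.2% for cytochrome P450 genes, 17.9% for conjugation enzymes, 22.2% for esterases and 26.3% for membrane drug transporters. They were 28.6% for steroid and retinoid reductases, 20% for nuclear receptors and cofactors and 40% for the zinc list. Of 18 cytochrome P450 genes 3 were higher and 1 lower. CYP3A7, the fetal form of CYP3A, had 12.3, 4.89 and 8.98 CPM with TCIPP and 5.62, 4.05 and 5.22 CPM with TCEP (0.81 ± 0.188 (SE), adjusted p = 0.0203), and CYP1A1, the target of the aryl hydrocarbon receptor, had 10.3, 4.14 and 5.99 CPM with TCIPP and 3.71, 2.59 and 4.68 CPM with TCEP (0.85 ± 0.235 (SE), adjusted p = 0.0412). Both were low in level and overlapped between the groups. CYP24A1, which breaks down vitamin D, rose by 0.36, and CYP19A1, aromatase, fell by 0.48. Conjugation enzymes had 2 of 28 higher and 3 lower, with UGT2B10, a glucuronosyltransferase, lower without overlap (-0.37 ± 0.0695 (SE), adjusted p = 0.00657). Esterases, which include targets of organophosphates, had 1 of 18 higher and 3 lower. The higher one was PNPLA6, neuropathy target esterase, at 40.8, 21.1 and 24.9 CPM with TCIPP and 21.4, 14.4 and 18.1 CPM with TCEP (0.67 ± 0.107 (SE), adjusted p = 0.0034), and the lower ones were ESD (-0.34 ± 0.062), CES3 (-0.58 ± 0.145) and PON2 (-0.23 ± 0.0628). Membrane drug transporters had 3 of 19 higher, among them ABCC2, an exporter of conjugates into bile (0.27 ± 0.0484), and 2 lower. Steroid and retinoid reductases had 4 of 14 higher, all aldo-keto reductases, and 0 lower. Lists overlap: AKR1C1 is in this list and in the NRF2 list, and SLC51B is in the transporter and bile acid lists. Nuclear receptors and cofactors, a list with other roles as well, had 6 of 35 higher and 1 lower, the lower one being PPARG (-0.30 ± 0.0726). In the zinc list SLC39A14, a zinc importer (0.56 ± 0.0742), and SLC30A1, an exporter (0.31 ± 0.0733), were higher, while MT1E, a metallothionein (-0.42 ± 0.0771), and SLC39A10, another importer (-0.40 ± 0.09), were lower among 10. MT1X was not called, with an interval of -0.71 to 0.26. Without pair 2, calls numbered 1 each in the cytochrome P450, conjugation, esterase, transporter and zinc lists. The reductases then had 3 calls and the nuclear receptors 2. By DESeq2 with the block 0 cytochrome P450 genes and 4 reductases were called. The conjugation, esterase, transporter, zinc and nuclear receptor lists had 1 call each by DESeq2.

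Cell cycle genes were called in shares near the 9.56% of all genes. Of 52 S phase genes 5 were lower and 0 higher (median -0.15), 9.62% called lower beside 4.97% of all genes, and 43 had a negative fold change. The smallest p was that of PCNA, the clamp of DNA polymerase, with 167, 225 and 141 CPM with TCIPP and 223, 252 and 187 CPM with TCEP (-0.33 ± 0.0613 (SE), adjusted p = 0.00634). Of 52 genes of G2 and mitosis 2 were higher and 4 lower, 11.5% called and so near the 9.56% of all genes. PLK1, a mitotic kinase, was higher (0.32 ± 0.0671) and KIF11, a spindle motor, lower (-0.38 ± 0.0862). MKI67, a marker of cycling cells, had 109, 135 and 155 CPM with TCIPP and 125, 142 and 136 CPM with TCEP, with an interval of -0.18 to 0.14. Among 25 p53 targets 2 were higher and 0 lower, 8% called and so not above the 9.56% of all genes. TP53INP1, a stress-induced partner of p53, had 16.2, 7.52 and 9.87 CPM with TCIPP and 7.33, 4.16 and 5.63 CPM with TCEP (0.95 ± 0.157 (SE), adjusted p = 0.00374), but was not called with unique exon reads. SESN2, which is also an ATF4 target, rose by 0.54. CDKN1A, the p53-induced inhibitor of cyclin-dependent kinases, had an interval of -0.18 to 0.13. Without pair 2, 2 S phase genes, 0 genes of G2 and mitosis and 1 p53 target were called. None of the 8 tested histone genes of replication was called at the adjusted p threshold by edgeR.

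For most genes the compounds were not distinguished at this depth. Of 11054 genes not called, 7638 (69.1%) had a 95% interval within 0.5 of 0 on the log2 scale, and the median half-width over all genes was 0.21. A difference of under 0.5 is still allowed in those genes, and a larger one in the rest. SPP1, a secreted phosphoprotein, had an interval of -0.13 to 0.09, whereas that of ETNPPL, an ethanolamine phosphate lyase at 2.87 ± 1.44 CPM with TCIPP and 1.74 ± 0.305 CPM with TCEP (SD, n = 3 each), ran from 0.06 to 1.35.

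Relative to the solvent, called genes had usually moved further with TCEP than with TCIPP, although both were at 25 µM. The TCEP mean was farther from the DMSO mean in 883 of the 1169 called genes (75.5%), against 59.7% of all genes, and the DMSO mean lay between those of the compounds in 848 (72.5%), against 42.0% of all genes. This is a description of levels, since the calls used the same libraries. Levels at the other concentrations are given side by side, without a test, because the concentrations differ. IGFBP3 averaged 53.9 ± 28.5 CPM with TCIPP at 25 µM, 121 ± 47.3 with TCEP at 25 µM, 57 ± 22.7 with TCEP at 250 µM, 122 ± 48.4 with TCIPP at 2.5 µM and 45 ± 19.3 with DMSO (SD, n = 3 each). SLC6A14 averaged 85.3 ± 32.4 CPM with TCIPP at 25 µM, 38.3 ± 11.5 with TCEP at 25 µM, 62.4 ± 23.9 with TCEP at 250 µM, 37.8 ± 16.5 with TCIPP at 2.5 µM and 89.7 ± 37 with DMSO.

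The same genes were looked up in libraries that the comparison did not use, as TCEP at 250 µM over TCIPP at 2.5 µM. Of the 1169 called genes, 787 (67.3%) had the same sign there, against 53.9% of all genes tested, and of the 200 genes with the smallest p 166 (83%) did. That contrast has TCEP over TCIPP and the one at 25 µM has TCIPP over TCEP, so an equal sign means that the compound with the higher level was not the same in both. Concentration differs between the compounds there, at 250 and 2.5 µM, and its part cannot be told apart from that of the compound. In that contrast 878 genes were called. Of the 1169, 281 were called in both contrasts in the same direction and 25 in opposite directions. SLC6A12 (1.21), SLC6A14 (0.74) and HOXD1 (0.70) were higher there and IGFBP3 (-1.08) lower, so that the first 3 were higher with TCEP there and with TCIPP at 25 µM. Ribosomal protein genes had a median of -0.05 there, beside -0.18 at 25 µM, and mitochondrially encoded genes 0.13, beside 0.22. The contrasts share no library, but their libraries carry the same replicate numbers.

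**Figure D4:**
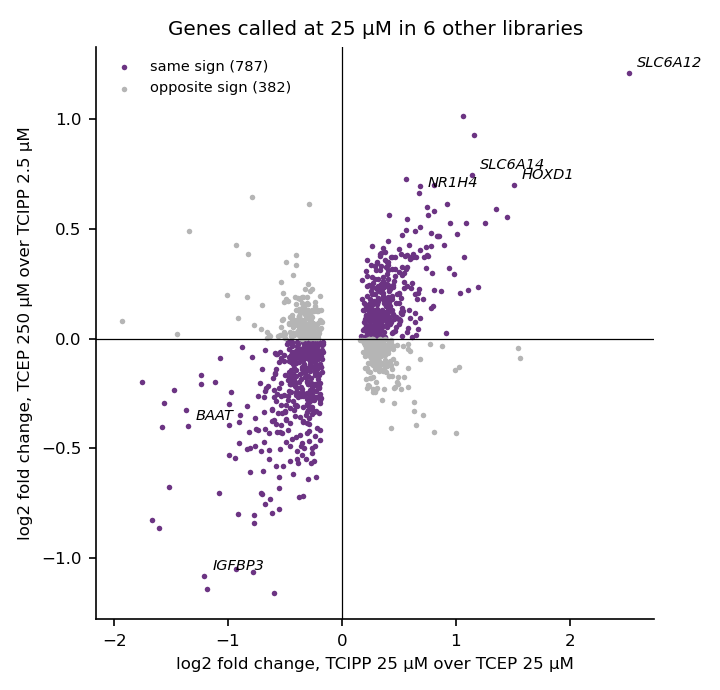
Log2 fold change of TCIPP over TCEP at 25 µM (horizontal) against that of TCEP at 250 µM over TCIPP at 2.5 µM (vertical) for the 1169 genes called at 25 µM. Purple points are the 787 genes with the same sign in both, and grey points are the others.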

How the data were processed

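The authors deposited a table for each library with whole-number read counts per gene and RPKM values, per the file headers. Reads were aligned and counted in CLC Genomics Workbench against human build hg19 (GRCh37), per the series' design text and the submitters' processing notes. No source used here states whether counting used strand, so a gene and its antisense partner cannot be told apart. The RPKM values, recomputed from exon reads, exon lengths and total gene reads, matched the deposited RPKM in 100% of genes with exon reads within a relative tolerance of 0.0001, and no test used them. A deposited column of normalized expression values, quantile-normalized per the series' design text, was not used. Tables held 57773 genes, 27 names turned into dates were restored from their identifiers, and gene starts were moved by 1 base.

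Total exon reads were tested with edgeR 4.0.16 (R 4.3.3), TMM scaling and filterByExpr, on the 6 libraries with replicate number as a block. Deviations of same-numbered libraries from their group means correlated at 0.223, 0.305 and 0.208, each above 0.1. The numbers were therefore taken to pair the libraries. Those of different numbers correlated at -0.223 to 0.0267. Each group was centred on its own mean, so positive values at equal numbers push the others down, and those are no separate evidence. This check used the same 6 libraries as the calls. With levels scaled over all 15 libraries the same-numbered correlations were 0.202, 0.272 and 0.177. DMSO libraries followed the numbers less, at 0.0291, 0.0164 and 0.0753 with TCIPP and 0.0615, 0.0292 and 0.0893 with TCEP at 25 µM. SE is the absolute log2 fold change over the square root of F, and intervals are 95%. The floor of 3 reads per library and the intervals cover counting and replicate spread only. On simulated data with known changes, 70% of genes changed by 0.5 and 91% of genes changed by 1 (log2) were called, with 10 of 12023 unchanged genes. Those counts were drawn for each gene separately from the model itself, with the block and the fitted dispersions, so the simulation cannot test the pairing. The genes compared and the 42 lists (1174 genes, 992 tested) were chosen with earlier results of these data known. Of the tested genes 62 were in more than 1 list, so counts of different lists are not independent. Named genes were up to 12 per direction with the largest change, averaging 1 CPM or more and not overlapping between groups, up to 4 members per list by p, and a fixed set. SLC1A5, EPHX1, GCLM, AFF1, CYB5A and the markers of other cells were named outside this rule after their values were seen. Alternatives changed the block, the libraries fitted, scaling, filter, tool (DESeq2 1.42.0, limma-voom 3.58.1), count column, replicates, and GC content with exon length (GENCODE v44lift37 transcripts). Some genes that the naming rule selects are not reported here.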

Additional observations from a re-analysis of the deposited data

How the results depend on the processing

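The number of calls depended on the pairing, the tool and the replicates. Without the replicate block, 0 genes were called (0 higher and 0 lower), and with all 15 libraries and no block 5 (2 higher and 3 lower). With the 12 treated libraries and the block 2096 were called (1021 higher and 1075 lower), without a count filter 1898 (1112 lower), and by DESeq2 with the block 357 (156 higher and 201 lower). Leaving out each replicate in turn gave 223 to 1415 calls, 107 to 639 higher and 116 to 776 lower. Counts stayed within 1.5 times under all other alternatives, among them limma-voom (1138) and unique exon reads (1581). All 1169 called genes kept their sign under every alternative that tested them, except 3 of 1136 with unique exon reads. Of 158 genes named and tested, 73 lost their call without replicate 2 and 142 without the block. With unique exon reads 9 of 149 did, namely RPL9, TP53INP1, NR0B2, DDIT4, CYP19A1, PER2, PROM1, SOX9 and CD68. With the GC and length correction 11 of 158 did, namely HSPD1, HSPE1, SLC1A5, LOX, PPARG, PER1, PER2, B2M, PON2, ATF4 and IGF2BP1. The share of called genes with the same sign in the other libraries was 62.3% without a count filter and 57.7% to 77.5% with a replicate left out. For the 200 genes of smallest p it was 74.5% without the block and 69% to 78% with a replicate left out. Among named genes, signs turned only in those that were not called. ALB (log2 fold change 0.06) ran from -0.0133 to 0.123 with a replicate left out. MT1X (log2 fold change -0.22) ran from -0.421 to 0.113 with a replicate left out. HMGCS1 (log2 fold change -0.04) ran from -0.103 to 0.00343 with a replicate left out and was 0.0555 with the GC and length correction with the block. AFP (log2 fold change -0.03) ran from -0.0636 to 0.00139 with a replicate left out and was 0.0819 with the GC and length correction with the block. SPP1 (log2 fold change -0.02) ran from -0.0708 to 0.0128 with a replicate left out and was 0.139 with the GC and length correction with the block. IGFBP1 (log2 fold change 0.02) ran from -0.0141 to 0.0439 with a replicate left out and was -0.0212 with total gene reads. CDKN1A (log2 fold change -0.02) ran from -0.0501 to 0.0225 with a replicate left out. MKI67 (log2 fold change -0.02) ran from -0.136 to 0.0711 with a replicate left out. LYZ (log2 fold change 0.03) ran from -0.0272 to 0.0800 with a replicate left out and was -0.081 with unique exon reads. Depth was lowest in TCIPP replicate 2, at 5.35 M exon reads. The causes of these changes were not tested.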

Other observations

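SLC6A12 is 1 of a set of genes that the tonicity factor NFAT5 is known to raise, and others of that kind were looked up after their values were seen, so they carry no test as a group. SLC6A6, the taurine carrier, had 95.2, 66.8 and 79.3 CPM with TCIPP and 65.4, 45.1 and 59.6 CPM with TCEP, with no overlap (log2 fold change 0.50 ± 0.0677 (SE), adjusted p = 0.00126, edgeR). AKR1B1, aldose reductase, which makes sorbitol, had 84.1, 53.8 and 62.3 CPM with TCIPP and 52, 45.6 and 53 CPM with TCEP (0.40 ± 0.0921 (SE), adjusted p = 0.02). NFAT5 itself had 149, 134 and 179 CPM with TCIPP and 118, 124 and 132 CPM with TCEP (0.31 ± 0.0663 (SE), adjusted p = 0.014). All 3 were higher with TCIPP in each pair. DMSO means were 80.2 ± 6.55 CPM for SLC6A6, 77 ± 8.94 for AKR1B1 and 146 ± 21.7 for NFAT5 (SD, n = 3). Without the block none of the 3 was called.

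SLC16A6, a carrier of the monocarboxylate family, had the second smallest p of all genes and was left out of the named genes because its groups overlapped. It had 3.84, 26.1 and 11.9 CPM with TCIPP and 17.4, 75.4 and 35.5 CPM with TCEP, lower with TCIPP in each pair (-1.67 ± 0.114 (SE), adjusted p = 1.48e-05), with 30.1% of its exon reads unique to 1 place. DMSO libraries had 7.42, 12 and 6.17 CPM. Replicate 2 was the highest of the 3 in all of these groups.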
